A study of Mus musculus with 24 samples.

Results

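Regulatory T cells (Tregs) of visceral adipose tissue (VAT) were compared between 3 knockout and 3 control mice that were young and fed normal chow. These 6 samples were chosen by their titles out of 24 samples in the study. Knockout mice were Foxp3-YFP-Cre;Insr-fl/fl, in which Cre recombinase made from the Foxp3 locus removes the floxed insulin receptor gene from Tregs. Control mice were Foxp3-YFP-Cre;Insr-wt/wt, so they carried the same Cre allele without floxed sites. All were male C57/Bl6 mice of the F4 generation, bred from crosses between F3 littermates, and were placed on chow at 3 weeks of age for 13 weeks, to 16 weeks. According to the labels, this Cre line also recombines in some cells that are not Tregs. The rest of the study held 5 knockout and 4 control mice of the same age fed a diet high in fat and sucrose (HFD), and 6 knockout and 3 control mice aged on chow to 52 weeks. Those mice were used where the genotype effects are compared. They also entered the shared estimate of spread behind the gene tests of the 6 samples.

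Each mouse gave 1 sample. Its visceral fat was digested on its own, and CD45+ CD4+ Foxp3(YFP)+ cells were sorted and lysed. The lysate was measured on a custom panel of 96 genes with the nCounter SPRINT Profiler, a NanoString instrument that counts barcoded probes hybridised to RNA without making a sequencing library. P-values therefore describe the spread between mice within these groups.

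Tregs are CD4 T cells that restrain immune responses and depend on the transcription factor Foxp3. Those of visceral fat form a distinct population that carries the IL-33 receptor and the transcription factors Pparg and Gata3, and they are known for limiting inflammation and supporting insulin sensitivity of fat in lean mice. Insulin binds the insulin receptor, which recruits insulin receptor substrates and activates PI3 kinase and Akt, and Akt in turn keeps FoxO transcription factors out of the nucleus.

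The values are normalized signal on a linear scale, and in each of these samples all genes shared a smallest unit of signal. That unit was taken as 1 raw count, and counts and depth below rest on this. Whether it is 1 counted barcode was not tested. All 576 values of the 6 samples came to whole counts to within 0.02. Totals were 20360, 23790 and 11446 counts in knockout mice, against 34672, 17371 and 141932 counts in control mice. Depth did not separate the genotypes beyond their spread (difference of mean log2 totals -1.32, exact two-sided permutation test p = 0.3, where 3 against 3 cannot give less than 0.1). The normalized signal over the panel summed to 100000, 100118 and 100000 in knockout mice and to 109979, 103368 and 126723 in control mice, so all 3 control samples were scaled to higher sums. For 18 of the 96 genes at least 4 of the 6 samples had under 20 counts.

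Control replicate 3 stood apart from the other 5 samples in how its counts were spaced. It had 11 genes between 92 and 115 counts, 8 between 152 and 205, 4 between 289 and 295 and 8 between 385 and 429, with none between these bunches. The spacing that best described its counts was 100.55 counts (written below as 1 spacing), while the best spacing was 10, 9.35 and 10 counts in the knockout samples and 10.45 and 9.55 counts in control replicates 1 and 2. Among values of 0.5 to 3.5 spacings, 17 of 21, 7 of 21 and 21 of 29 lay within 0.2 of a whole number of spacings in knockout mice, against 11 of 18, 16 of 26 and 19 of 24 in control mice, a tolerance that covers 40% of the range. Each spacing was chosen as the one at which the counts of that sample bunched most. The choice raises these shares, so 40% is not their chance level and they do not test the spacing. The spacing of knockout replicate 2, with 7 of 21, was therefore not settled. Divided by its spacing, the total of control replicate 3 came to 1412 spacings, inside the range of 1145 to 3318 of the other samples. The cause of the spacing was not tested. Results that lose the call without control replicate 3 are also given without it.

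Of the 96 genes, 5 passed the test in knockout against control Tregs (limma, Benjamini-Hochberg adjusted p under 0.05), which is 5.21% of the panel. Lmna, Ccr7 and Irs2 were higher in knockout mice (3.12% of the panel) and InsR and Ccr2 were lower (2.08%). Across all 96 genes the median log2 fold change was -0.08, with 43 positive and 53 negative. With the 2 young chow-fed groups fitted alone, 4 genes passed (InsR, Lmna, Klrg1 and Ccr3), and Ccr7, Ccr2 and Irs2 lost the call (adjusted p = 0.135, 0.1 and 0.178). Before adjustment, 12 genes (12.5%) had p under 0.05, of which 5 (5.21%) were higher and 7 (7.29%) lower in knockout mice. The ranges of the groups did not overlap for 23 genes (24%), of which 10 (10.4%) lay above and 13 (13.5%) below the control range in knockout mice. This balance moved with the scaling. It was 10 above and 7 below with samples centred on their median, and 13 and 10 when rescaled to a single total. Centring on the reference genes gave 3 above and 19 below.

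InsR, the insulin receptor itself, checks the genotype labels. Its signal was 9.82, 4.21 and 17.5 in knockout mice, against 159, 59.5 and 103 in control mice. Every knockout mouse lay below every control mouse. The means were 10.5 ± 6.66 in knockout and 107 ± 49.7 in control Tregs (SD, n = 3 each), and the log2 fold change on the log2(signal + 1) scale was -3.30 ± 0.62 (SE, 95% interval -4.59 to -2.02, limma adjusted p = 0.00225). Behind these values stood 2, 1 and 2 counts in knockout mice and 50, 10 and 115 counts in control mice, and in control replicates 2 and 3 the counts amounted to 1.05 and 1.14 spacings. Whether the probe lies inside the deleted part of the gene is unknown here, so the remaining signal could not be placed.

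Irs2, the adaptor that carries the signal from the insulin and IGF-1 receptors to PI3 kinase, was higher in knockout Tregs. It reached 806, 1317 and 612 in knockout mice, against 511, 250 and 172 in control mice. The lowest knockout value stood above the highest control value, by a narrow margin. The effect on the log2 scale was 1.62 ± 0.46 (SE, limma adjusted p = 0.0384). The means were 911 ± 365 and 311 ± 177 (SD, knockout and control, n = 3 each). It lost the call without knockout replicate 1 (1.68, adjusted p = 0.112), knockout replicate 2 (1.32, 0.184), control replicate 2 (1.54, 0.166) or control replicate 3 (1.27, 0.227), and with log2 depth as a covariate (1.5, 0.0796). With samples centred on the 4 reference genes it was 1.24 with an adjusted p of 0.271.

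IGF1R, the related receptor for insulin-like growth factor 1, had 152, 88.4 and 192 in knockout mice, against 98.3, 119 and 154 in control mice. The groups overlapped, and the log2 fold change of 0.17 ± 0.46 did not pass the test (adjusted p = 0.967, 95% interval -0.78 to 1.13). Of the 14 genes of insulin and IGF receptor signalling looked for, these 3 were on the panel, so that 1 rose, 1 fell and 1 did not pass (66.7% passed, against 5.21% of the panel). The one that fell is the deleted gene itself. Because the list was chosen with earlier results of these data known, its share is not a test.

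FoxO factors bind the insulin response sequence, whose core is CAAAACA, and Irs2 is a known target of FoxO1 in liver. The 250 bases before each listed transcript start were read for the genes that passed, from RefSeq sequences of GRCm38.p6, and 3 of the 5 genes had an entry. The motif CAAAACA was searched on both strands, where the other strand reads TGTTTTG, and 5.56% of the 32851 mouse promoter windows of this length held it. The windows of Irs2 (chr8:11008930-11009179, minus strand) and Ccr2 (chr9:124101933-124102182, plus strand) each held 1 match, shown in capitals, and they are printed because one gene rose and the other fell.
Irs2: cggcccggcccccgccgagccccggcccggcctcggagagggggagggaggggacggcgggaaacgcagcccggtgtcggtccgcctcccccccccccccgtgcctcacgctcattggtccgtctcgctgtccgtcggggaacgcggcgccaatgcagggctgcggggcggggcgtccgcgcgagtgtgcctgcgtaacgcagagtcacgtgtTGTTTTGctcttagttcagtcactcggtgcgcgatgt
Ccr2: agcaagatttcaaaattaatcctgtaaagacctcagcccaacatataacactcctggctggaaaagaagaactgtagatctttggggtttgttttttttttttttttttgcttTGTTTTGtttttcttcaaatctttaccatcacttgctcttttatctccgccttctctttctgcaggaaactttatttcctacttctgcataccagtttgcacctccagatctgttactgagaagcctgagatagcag
The Irs2 window begins directly outside the annotated gene, which ends at 11008929, and its match lay 37 bases before the start. The Ccr2 window lies inside the annotated gene, which begins at 124101918, so its match, 137 bases before the listed start and in a T-rich stretch, is not upstream of the whole gene. Both windows listed for Lmna also lie inside that gene and held no match. A match describes these letters and does not show that a factor bound there.

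Chemokine receptors steer T cells between blood, lymph nodes and tissue, and 8 of the 20 receptor and adhesion genes looked for were measured. Of these, Ccr7 rose, Ccr2 fell and 6 did not pass (2 of 8 passed, 25%, against 5.21% of the panel), with a median log2 fold change of -0.12. Earlier results of these data were known when the list was chosen, so its share does not test it. Ccr7, the receptor that guides T cells into lymph nodes, had 2078, 1351 and 620 in knockout mice, against 130, 71.4 and 529 in control mice. Knockout replicate 3 and control replicate 3 were close to each other, while the other 4 mice were more widely separated. Control values rested on 41, 12 and 593 counts, or 3.92, 1.26 and 5.90 spacings. Knockout values rested on 423, 321 and 71 counts, or 42.3, 34.3 and 7.1 spacings. The log2 fold change was 2.81 ± 0.69 (SE, adjusted p = 0.0151), with means of 1350 ± 729 in knockout and 244 ± 249 in control Tregs (SD, n = 3 each). It did not depend on control replicate 3, without which it was 3.63 (adjusted p = 0.00253), but it lost the call without knockout replicate 1 (2.42, adjusted p = 0.112), knockout replicate 2 (2.73, 0.0543), control replicate 1 (2.62, 0.0577) or control replicate 2 (2.19, 0.159).

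Ccr2, the receptor for CCL2 that draws cells into inflamed tissue, had 98.2, 122 and 218 in knockout mice, against 393, 506 and 1333 in control mice. The groups did not overlap, and control replicate 3 was the highest sample. Knockout values rested on 20, 29 and 25 counts, or 2.0, 3.10 and 2.5 spacings. Control values rested on 124, 85 and 1493 counts, or 11.9, 8.90 and 14.8 spacings. The log2 fold change was -2.21 ± 0.61 (SE, adjusted p = 0.0329), with means of 146 ± 63.6 in knockout and 744 ± 513 in control Tregs (SD, n = 3 each). It lost the call without knockout replicate 1 (-1.97, adjusted p = 0.141), knockout replicate 2 (-2.12, 0.0999), control replicate 2 (-2.38, 0.0735) or control replicate 3 (-1.69, 0.218).

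Ccr3, a receptor for eotaxins, had 58.9, 46.3 and 87.4 in knockout mice, against 9.52, 17.9 and 13.4 in control mice. The groups lay apart, but the counts behind them were 12, 11 and 10 in knockout and 3, 3 and 15 in control mice, and the difference of 2.15 ± 0.80 did not pass (adjusted p = 0.157). Cxcr6, the receptor for CXCL16 that marks tissue-resident T cells, had 255, 206 and 17.5 in knockout mice, against 1161, 149 and 530 in control mice. These ranges overlapped, and its log2 fold change of -2.19 ± 1.05 did not pass (adjusted p = 0.348). The other members, Ccr1, Ccr4, Cxcr4 and Cd44, had log2 fold changes of -0.18, -0.29, 0.44 and -0.05 and overlapped between genotypes.

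**Figure D1:**
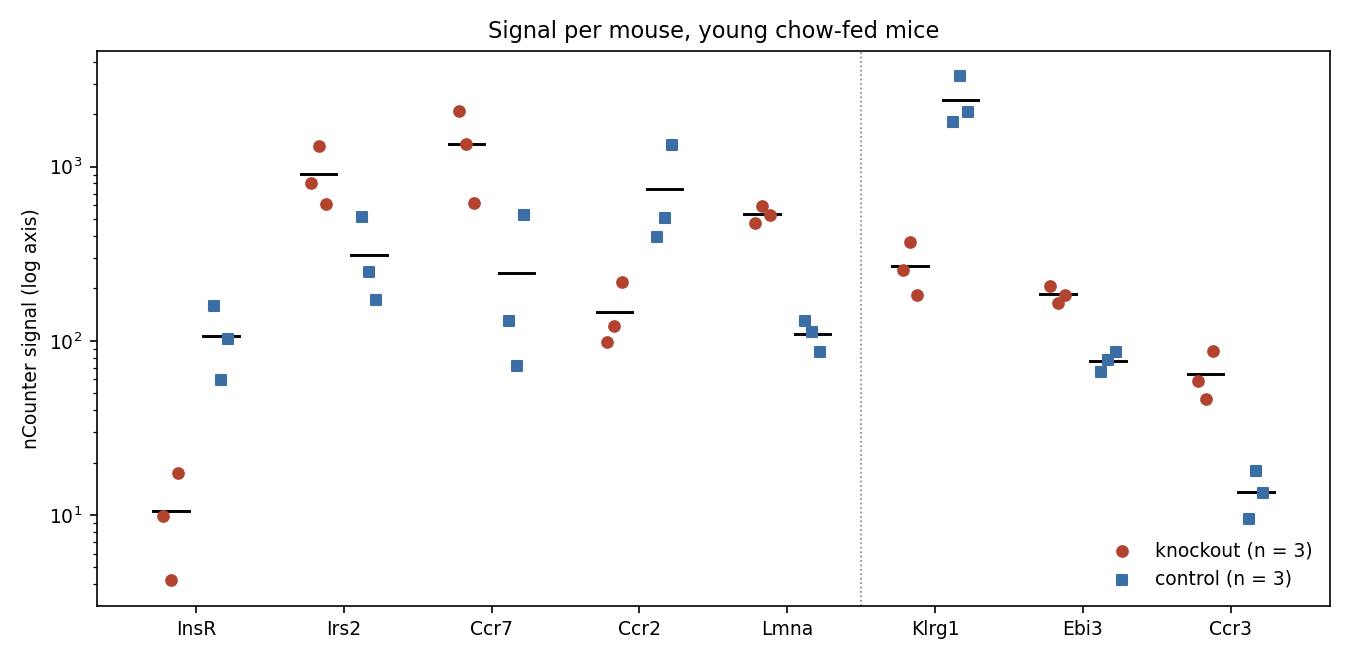
Normalized nCounter signal (log axis) of each young chow-fed mouse, with knockout mice (circles, n = 3) left of control mice (squares, n = 3) for each gene. The dotted line divides the 5 genes that passed the test, at the left, from genes that did not. InsR in knockout mice lay between 4.21 and 17.5, below all control mice.

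Lmna, which encodes the nuclear lamins A and C, had the tightest separation among the genes that passed. Its signal was 476, 593 and 524 in knockout mice, against 130, 113 and 86.6 in control mice. Every knockout mouse was above every control mouse, with means of 531 ± 58.8 and 110 ± 21.9 (SD, knockout and control, n = 3 each), a ratio of 4.83. Its log2 difference was 2.28 ± 0.48 (SE, limma adjusted p = 0.005), and leaving out any of the 6 mice kept it past the threshold. The control signal rested on 41, 19 and 97 counts, which were 3.92, 1.99 and 0.96 spacings, against 97, 141 and 60 counts, or 9.70, 15.1 and 6.00 spacings, in knockout mice. The spacing behind the 15.1 of knockout replicate 2 was not settled. Centring on the reference genes gave 1.89 with an adjusted p of 0.0751.

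Genes that mark Tregs of visceral fat were on the panel for 17 of the 21 looked for. Ccr2 fell, none rose and 16 did not pass, with a median log2 fold change of -0.49 against -0.08 over all 96 genes. The fold change was negative for 14 of the 17 (82.4%), beside 53 of all 96 genes (55.2%). The groups lay apart with knockout mice below for 5 of the 17 (29.4%, against 13.5% of the panel) and with knockout mice above for 2 (11.8%, against 10.4% of the panel). The list was chosen with earlier results of these data known, so these shares describe it and do not test it. Knockout mice lay below for 3 of the 17 with samples centred on their median (7 of all 96 genes). The number was 4 when rescaled to a single total (10 of 96) and 5 when centred on the reference genes (19 of 96). Added up, the 17 genes gave a signal of 16930, 13278 and 14695 in knockout mice, against 26569, 23779 and 23819 in control mice. The sums did not overlap, and they were still apart when Il1rl1, the brightest member, was taken out (10005, 10403 and 11768 in knockout mice, against 17697, 14276 and 15972 in control mice). That remaining gap leaned on Klrg1, which held 183 in knockout replicate 3 and 3314 in control replicate 2. With Klrg1 taken out as well, knockout replicate 3 would lie above control replicate 2 and the sums would overlap. As a share of the panel's signal, which does not depend on how samples were scaled, the list took 16.9%, 13.3% and 14.7% in knockout mice, against 24.2%, 23.0% and 18.8% in control mice. The number with a negative fold change was 10 of 17 with samples centred on their median (41 of all 96 genes). It was 13 when rescaled to a single total (45 of 96) and 14 when centred on the reference genes (69 of 96). With any 1 mouse left out it lay between 11 and 14, beside 50 to 58 of the 96.

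Klrg1, an inhibitory receptor of differentiated effector Tregs, had the smallest p among the members that did not pass. Its signal was 255, 370 and 183 in knockout mice, against 1811, 3314 and 2064 in control mice. Knockout mice were low and control mice high with a wide gap, and the means were 270 ± 94.3 and 2397 ± 805 (SD, knockout and control, n = 3 each). The log2 fold change of -3.15 ± 0.99 missed the threshold in the fit over all 24 samples (adjusted p = 0.0661). It passed in 5 of 19 alternatives, among them the fit of the young chow-fed groups alone (adjusted p = 0.0153) in which Ccr7, Ccr2 and Irs2 did not pass.

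Il1rl1 encodes the IL-33 receptor ST2, on whose signal visceral fat Tregs depend. It had 6925, 2874 and 2927 in knockout mice, against 8872, 9503 and 7847 in control mice. Knockout replicate 1 came near the control mice and the other knockout mice were well below, and the log2 fold change of -1.17 ± 0.58 did not pass (adjusted p = 0.348). Cxcl2, a neutrophil-attracting chemokine, had 570, 859 and 1083 in knockout mice, against 2195, 1517 and 1520 in control mice. Those groups did not overlap, with a log2 fold change of -1.08 ± 0.48 that did not pass (adjusted p = 0.345). Areg, an epidermal growth factor family ligand that Tregs release in tissue repair, had 928, 673 and 821 in knockout mice, against 1412, 988 and 1245 in control mice, also without overlap (log2 fold change -0.59, adjusted p = 0.745).

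Of the transcription factors at the head of the visceral fat programme, neither Pparg nor Gata3 passed. Pparg, a nuclear receptor for fatty acids, had 172, 88.4 and 175 in knockout mice, against 219, 250 and 136 in control mice (log2 fold change -0.49, 95% interval -1.57 to 0.59, adjusted p = 0.821). Gata3, which with ST2 signalling maintains these cells, had 909, 1208 and 2595 in knockout mice, against 1716, 1934 and 1968 in control mice (-0.40, 95% interval -1.74 to 0.94, adjusted p = 0.932). Both overlapped between genotypes, and Gata3 was spread more widely in knockout mice. Dgat1, which makes triglycerides, was the other lipid gene beside Pparg. It had 2642, 2698 and 2892 in knockout mice, against 2528, 1767 and 2064 in control mice. Knockout mice lay above control mice without overlap (0.39, adjusted p = 0.932). Neither lipid gene passed. The panel measured 3 receptors for fat-derived hormones, AdipoR1, AdipoR2 and LeptinR, none of which passed, with log2 fold changes of -0.53, -0.49 and 0.08.

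**Figure D2:**
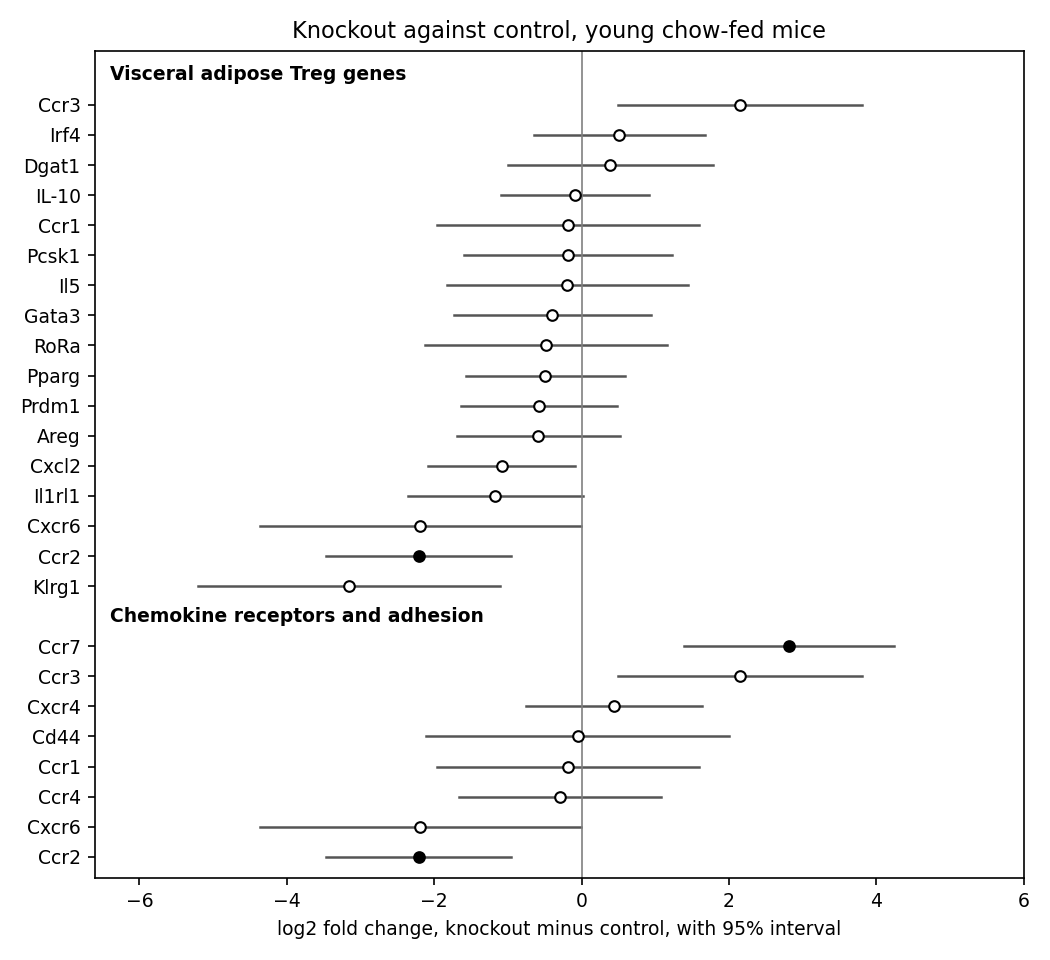
Log2 fold change of knockout over control Tregs for measured members of the visceral adipose Treg and chemokine receptor lists, with 95% intervals from limma (3 mice each). Of the 17 adipose Treg genes 14 lie left of 0, beside 53 of all 96 genes. Ccr2 (-2.21) and Ccr7 (2.81) passed the test in opposite directions.

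Genes of core Treg identity were measured for 5 of the 10 looked for, and none passed, with a median log2 fold change of 0.07. Only 5.21% of the panel passed, so the absence of calls in this and the other short lists says little about them. Foxp3, which defines the lineage and was the sorting marker, had 3001, 3417 and 3434 in knockout mice, against 3058, 2107 and 4721 in control mice. The knockout values lay inside the control range, with a log2 fold change of 0.07 and a 95% interval of -1.13 to 1.27. Helios, encoded by Ikzf2 and found in most thymus-derived Tregs, had 2967, 3451 and 2001 in knockout mice, against 1735, 2844 and 2684 in control mice (0.21, 95% interval -0.73 to 1.15). CD25, the high-affinity chain of the IL-2 receptor, had 3806, 2045 and 2507 in knockout mice, against 5649, 5534 and 6956 in control mice. CD25 did not overlap between genotypes, but its log2 fold change of -1.16 ± 0.63 did not pass (adjusted p = 0.428).

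Nrp1, a surface receptor of thymus-derived Tregs, had 629, 480 and 358 in knockout mice, against 197, 345 and 346 in control mice, and Lrrc32, which holds latent TGF-beta on the surface, had 1257, 1452 and 183 in knockout mice, against 983, 422 and 1882 in control mice. Nrp1 lay above in knockout mice without overlap, by a narrow margin, while Lrrc32 overlapped. Neither passed (log2 fold changes 0.73 and -0.41). TGFb, whose isoform the panel name does not give, had 1351, 1477 and 1852 in knockout mice, against 1177, 643 and 1062 in control mice, without overlap (0.73, adjusted p = 0.428). Together with Furin, which cleaves the TGF-beta precursor, these made up 4 TGF-beta genes, of which none passed.

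Among 7 suppressive effector genes of 13 looked for, none passed, with a median log2 fold change of -0.05. Ebi3, a subunit shared by IL-35 and IL-27, came nearest, with 206, 164 and 183 in knockout mice, against 66.6, 77.4 and 86.6 in control mice. The groups were tight and did not overlap (log2 fold change 1.26 ± 0.41, adjusted p = 0.0832), on 42, 39 and 21 counts in knockout and 21, 13 and 97 counts in control mice. These were only 4.2, 4.17 and 2.1 spacings in knockout mice and 2.01, 1.36 and 0.96 in control mice. IL-10, the main anti-inflammatory cytokine of these cells, had 196, 118 and 210 in knockout mice, against 238, 262 and 93.7 in control mice, which overlapped (-0.09, 95% interval -1.09 to 0.91). Of 3 cytotoxic granule genes, GzmA, GzmB and Perforin, none passed (-0.82, 0.26 and -0.16). Among 6 checkpoint and activation receptors, Klrg1 apart, the inhibitory receptor Pdcd1 had 1552, 1616 and 1599 in knockout mice, against 1830, 1815 and 1349 in control mice (-0.05), and none of the 6 passed.

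All 4 measured cytokine receptors had a negative log2 fold change (53 of all 96 genes did), with a median of -1.06, and none passed. They were CD25 (-1.16), Il1rl1 (-1.17), Il10ra, the ligand-binding chain of the IL-10 receptor (-0.81), and Il9r, the IL-9 receptor (-0.96). Il9r rested on only 3, 2 and 1 counts in knockout and 3, 11 and 16 counts in control mice, and it overlapped between genotypes. The 4 stayed negative under each of the 3 other scalings and without any 1 of the 6 mice. Their summed signal was 10997, 5181 and 6133 in knockout mice, against 15343, 15745 and 15274 in control mice, and nearly all of it came from Il1rl1 and CD25. CD25 and Il1rl1 did not overlap between genotypes as deposited, but with samples centred on their median none of the 4 was apart. Over all 96 genes, knockout mice lay below control mice for 13 (13.5%) as deposited and for 7 with sample medians.

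Among 9 lineage transcription factors none passed, and all 9 overlapped between genotypes (median log2 fold change 0.07). Of all 96 genes, 73 overlapped and 5.21% passed. Rorgt, the factor of Th17 cells and of Tregs induced at mucosal surfaces, varied most between knockout mice. It had 162, 1359 and 2752 in knockout mice, against 263, 250 and 347 in control mice. Knockout replicate 1 was below all control mice, while the other knockout mice were well above them, and the log2 fold change of 1.57 ± 0.97 did not pass (adjusted p = 0.455). The counts were 33, 323 and 315 in knockout and 83, 42 and 389 in control mice. Tbet, the Th1 factor, was also highest in knockout replicate 3, with 103, 88.4 and 349 in knockout mice, against 98.3, 179 and 86.6 in control mice. Irf4, Prdm1, RoRa, Satb1 and Nr1d1 had log2 fold changes of 0.51, -0.57, -0.49, 0.54 and -0.07.

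**Figure D3:**
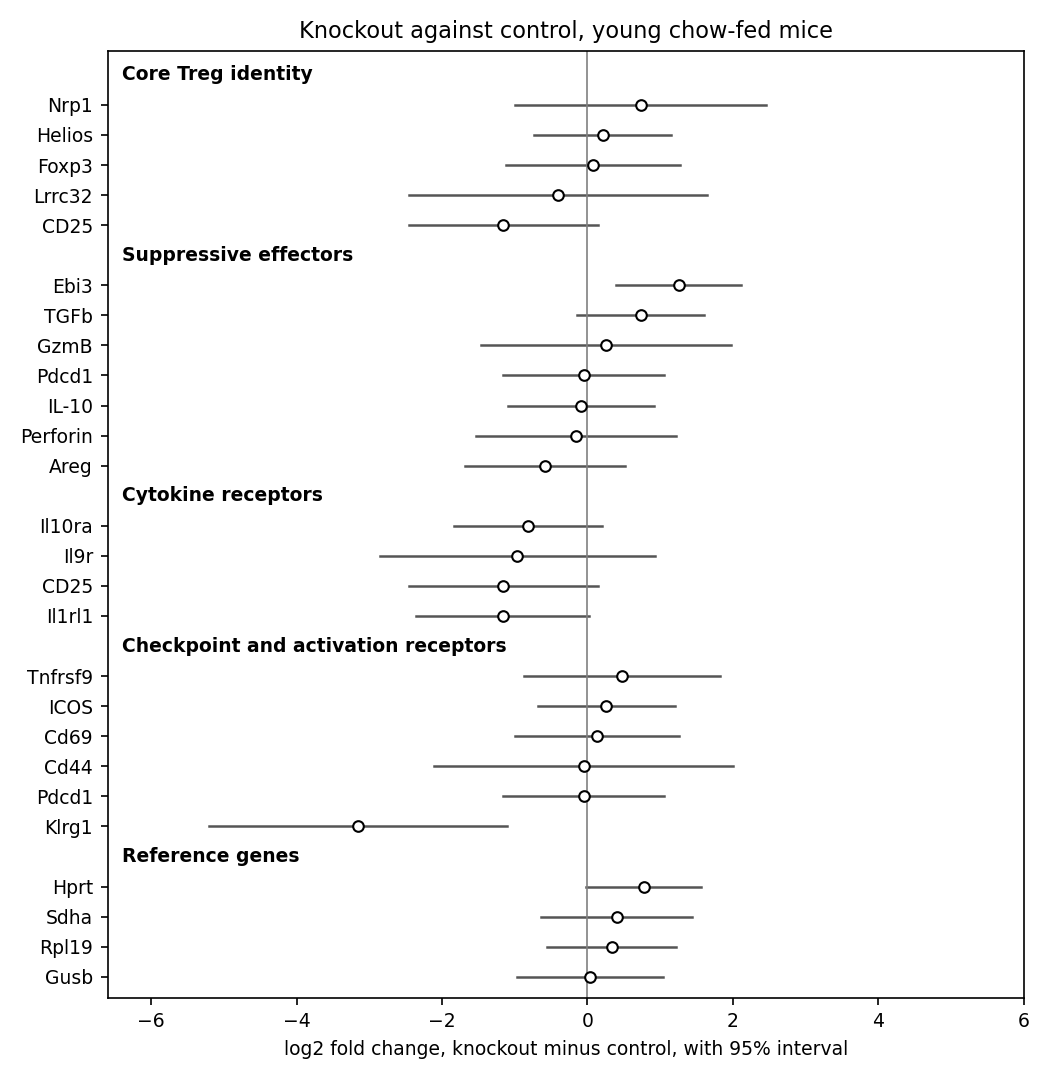
Log2 fold change of knockout over control Tregs for measured members of the core identity, effector, cytokine receptor, checkpoint and reference gene lists, with 95% intervals from limma (3 mice each). The 4 cytokine receptors lie left of 0, and their intervals, like those of the core identity genes, include 0.

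Among 6 immediate early and stress genes, 5 had a negative log2 fold change (53 of all 96 genes did) and none passed (median -0.44). Fosb, an AP-1 subunit, had 3060, 2769 and 2831 in knockout mice, against 4016, 4838 and 4199 in control mice, without overlap (-0.59, adjusted p = 0.671). Nr4a1, a nuclear receptor induced by T cell receptor signals, had 1424, 2883 and 3521 in knockout mice, against 5250, 3844 and 2592 in control mice (-0.62, adjusted p = 0.455), and Fos was the 1 member with a positive value (0.51).

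The NF-kB regulators and chemokines were Nfkbid, Cxcl2 and Cxcl3, all negative (median -0.94) with none passing. Over the panel, 53 of 96 genes were negative. Nfkbid, a nuclear inhibitor of NF-kB family proteins, had 923, 1140 and 1101 in knockout mice, against 1304, 1172 and 1328 in control mice, which came close without overlapping (-0.27, adjusted p = 0.976). The S100 proteins and annexins were also all negative and none passed (median -0.88). S100a4, a calcium-binding protein of motile cells, had 4185, 5824 and 7479 in knockout mice, against 12095, 10592 and 8906 in control mice (-0.88 ± 0.42, adjusted p = 0.348). S100a6 differed more within the knockout group, at 192, 690 and 1380, against 650, 702 and 715 in control mice, and Anxa1, an anti-inflammatory annexin, had a log2 fold change of -0.89.

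Outside the lists, Myadm, a membrane protein of myeloid and other blood cells, had 339, 240 and 192 in knockout mice, against 625, 583 and 445 in control mice. The groups lay apart with a log2 fold change of -1.12 ± 0.50 that did not pass (adjusted p = 0.345). Rgs2, a regulator of G protein signalling, had 4641, 5037 and 4412 in knockout mice, against 2309, 2957 and 3837 in control mice, again apart and not past the threshold (0.66, adjusted p = 0.641). Ltb4r1, a receptor for leukotriene B4, had 162, 206 and 341 in knockout mice, against 422, 428 and 975 in control mice (-1.31 ± 1.01, adjusted p = 0.671). Of the remaining genes with small p, Cabyr, Ctla2b and Zbtb10 overlapped between genotypes and had log2 fold changes of -1.43, -1.93 and 1.08, each with an adjusted p of 0.428. Ctla2b rested on 2, 1 and 1 counts in knockout and 13, 11 and 11 counts in control mice. Tdrkh was at 0 in knockout replicates 1 and 3 and at 42.1 in knockout replicate 2, against 31.7, 29.8 and 6.25 in control mice. Its counts were 0, 10 and 0 in knockout and 10, 5 and 7 in control mice.

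Markers of other cells on the panel were few. Of 12 macrophage and neutrophil markers looked for, Lyz2 and Mmp9 were measured, and their summed signal was 118, 109 and 402 in knockout mice, against 435, 244 and 55.4 in control mice. The groups overlapped. Lyz2, the lysozyme of macrophages and neutrophils, made up most of it, with 108, 105 and 227 in knockout mice, against 422, 226 and 48.2 in control mice (-0.28 ± 1.28). Igfbp7, an insulin-like growth factor binding protein of stromal and endothelial cells, was the 1 measured member of 9 stromal, endothelial and fat cell markers. It had 108, 75.8 and 280 in knockout mice, against 492, 476 and 720 in control mice, without overlap (-2.06 ± 1.01, adjusted p = 0.348), in the same direction as the visceral fat Treg sum. Its part in the other results was not tested. No marker of B cells, and none of cytotoxic T or NK cells, was on the panel. In sorted bulk cells, fewer cells of a type and less RNA per cell cannot be told apart.

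The 4 reference genes were all positive, with a median log2 fold change of 0.37, and none passed. Hprt, of purine salvage, had 162, 282 and 245 in knockout mice, against 130, 119 and 144 in control mice (0.77 ± 0.38, adjusted p = 0.348), and Gusb and Sdha had 0.04 and 0.40. Rpl19, a ribosomal protein gene and the brightest of them, had 16306, 15058 and 17124 in knockout mice, against 8469, 10235 and 24279 in control mice, so control replicate 3 was the highest sample and the other control mice the lowest (0.33 ± 0.43). Centring on these 4 genes moved the median log2 fold change of all genes by -0.39, centring on the sample median by 0.23, and rescaling to a single total by 0.17. The numbers of genes with positive and negative fold changes were 27 and 69 with reference genes, 55 and 41 with sample medians and 51 and 45 with a single total, beside 43 and 53 as deposited. The medians of the insulin signalling, TGF-beta, core identity, lineage factor and checkpoint lists were negative with reference genes and positive as deposited, and those of the effector, cytotoxic, chemokine receptor and lipid lists were positive with sample medians or a single total and negative as deposited.

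Knockout replicate 3 and control replicate 2, the samples with the lowest counts, shared some low genes. Cxcr6, Gramd3, Lrrc32 and Tcra were each more than 2-fold below both other mice of the group in each of them. Tcra, the T cell receptor alpha chain, had 1066, 762 and 253 in knockout mice, against 1767, 125 and 808 in control mice, and Gramd3 had 1911, 1241 and 183 in knockout mice, against 1266, 131 and 993 in control mice. None of the 4 passed the test. Across genes, the log2 signal of knockout replicates 1 and 2 correlated at 0.93, while knockout replicate 3 correlated at 0.86 and 0.87 with them and the control mice at 0.90 to 0.91 with each other. Genes are not independent replicates, and these values describe the samples only.

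The genotype effect of young chow-fed mice was set against that of HFD mice and of 52-week-old mice, which share no samples with it. No gene passed for either difference (0 of 96 each, 0%, limma), while 12 genes (12.5%) had an unadjusted p under 0.05 for diet and 26 (27.1%) for age. The median over all 96 genes was 0.49 for the age difference and -0.06 for the diet difference, and the 26 genes became 13 with sample median centring and 15 with reference gene centring. The 5 genes that passed in young chow-fed mice are therefore not shown to be particular to them.

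InsR itself had a log2 fold change of -3.30 in young chow-fed mice, -3.93 in HFD mice and -5.70 in aged mice, and the difference was 0.63 from HFD (chow minus HFD, 95% interval -1.04 to 2.30, adjusted p = 0.809) and 2.40 from aged mice (95% interval 0.69 to 4.10, adjusted p = 0.109). For the 3 genes that rose in young chow-fed knockout mice, values in the other settings lay between -0.34 and 0.51. Lmna was 2.28 in chow-fed, 0.51 in HFD and -0.21 in aged mice. The difference was 1.76 ± 0.63 from HFD (SE, adjusted p = 0.222) and 2.49 ± 0.64 from aged mice (adjusted p = 0.075). Irs2 was 1.62, 0.38 and -0.30 in the same order, differing by 1.24 ± 0.60 (adjusted p = 0.374) and 1.93 ± 0.61 (adjusted p = 0.0839).

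Ccr7 was 2.81 in chow-fed, -0.34 in HFD and 0.47 in aged mice, and the difference from HFD was 3.16 ± 0.89 (SE, adjusted p = 0.0853). Ccr2 was negative in all 3 settings (-2.21, -0.50 and -0.59), with differences of -1.72 and -1.63 that did not pass (adjusted p = 0.351 and 0.185). Rorgt differed most by diet, by 4.96 ± 1.26 (adjusted p = 0.0634). Its effect was 1.57 in chow-fed mice, where 2 of the 3 knockout mice were high and it did not pass, -3.39 in HFD mice, where it passed (adjusted p = 0.0152), and -1.62 in aged mice. Ccr3 differed by 3.05 (adjusted p = 0.222). By age, Igfbp7 (-4.74 ± 1.34), Myadm (-2.17) and Helios (2.03) followed Lmna, each with an adjusted p of 0.0823.

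**Figure D4:**
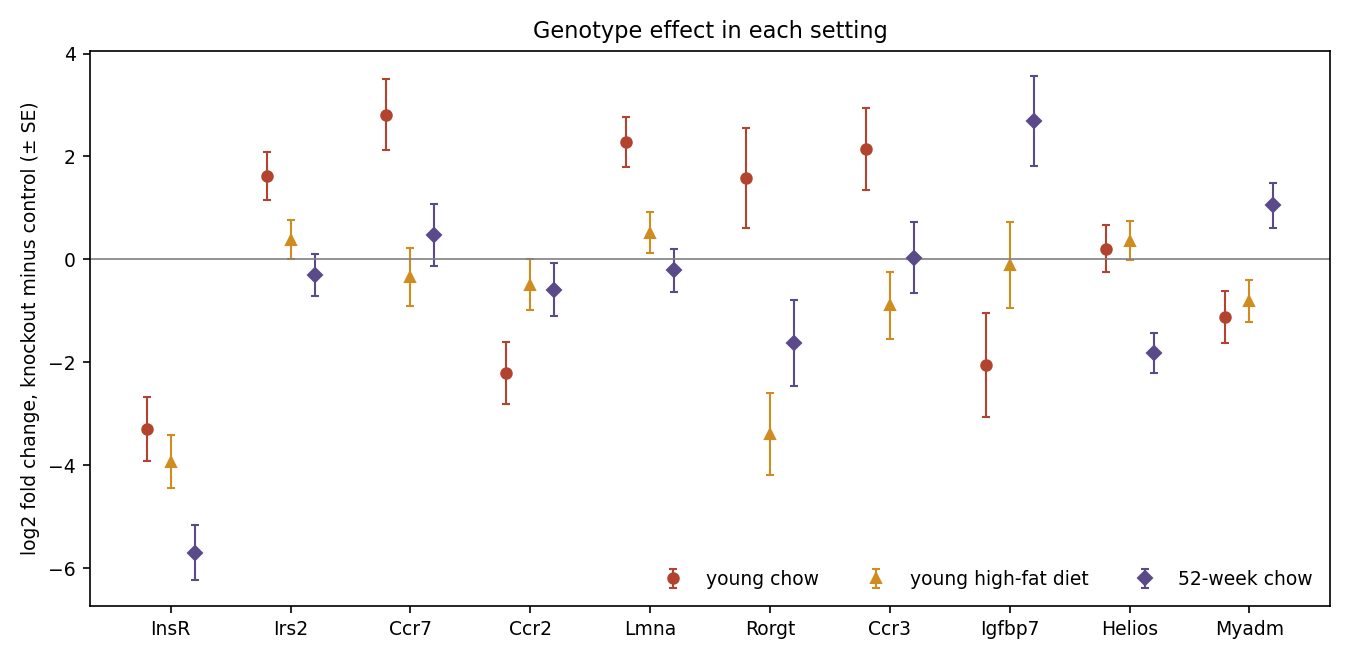
Log2 fold change of knockout over control Tregs, with the standard error from limma, for the genes that passed in young chow-fed mice and other named genes, in young chow-fed (3 and 3 mice), HFD (5 and 4) and 52-week-old (6 and 3) knockout and control mice. InsR is below 0 in all 3 settings, while Lmna, Ccr7 and Irs2 are at 2.28, 2.81 and 1.62 in chow-fed mice and between -0.34 and 0.51 in the others. No difference between settings passed the test.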

How the data were processed

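VAT Tregs of 24 mice were measured on a 96-gene nCounter panel, per the labels' protocols. The authors deposited normalized linear signal, and no label or header states the software, background subtraction or use of spike-in controls. Panel names were matched to genes by symbol for 88 and by hand for 8. Raw counts were read off as whole multiples of each sample's step, and 2302 of 2304 values came out whole within 0.02. The spacing of counts was described after the values were seen.

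Values were transformed as log2(signal + 1), and limma 3.58.1 in R 4.3.3 fitted 6 group means to all 24 samples (lmFit, contrasts.fit, eBayes), so that the groups share 1 estimate of spread. P-values are two-sided and adjusted by Benjamini-Hochberg over 96 genes, with a threshold of 0.05; no gene or sample was dropped. Depth was compared with an exact permutation test, also in R. The code was tested on simulated data.

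Named genes were those past the threshold, those with the smallest p up to 25, and fixed genes of interest; 2 genes the rule takes are not reported here. Members and lists were chosen with earlier results of these data known. Alternatives changed the pseudocount, filters, scaling, the samples fitted, weights, variance model, replicate block, depth covariate and samples left out. Promoter windows came from RefSeq, GRCm38.p6.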

Additional observations from a re-analysis of the deposited data

How the results depend on the processing

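Against 5 genes past the threshold in young chow-fed mice, 3 passed with reference gene centring, 8 with array weights and 1 (InsR) with a replicate block. With the groups fitted alone 4 passed, of which 2 were among the 5 (InsR and Lmna), and 2 to 5 passed with 1 mouse left out. Deviations of same-numbered knockout and control samples correlated at 0.04, -0.24 and -0.23. With 3 mice a group these values cannot show whether same-numbered mice were paired. If they were, the replicate block would apply and only InsR would pass. InsR passed in all 17 alternatives that could fit it, Lmna in 17 of 19, Ccr7 and Ccr2 in 13 of 19 and Irs2 in 11 of 19. Of 37 named genes, 29 kept their sign in every alternative, and IGF1R, Foxp3, Helios, IL-10, Lyz2, Tcra, Gusb and Rpl19 turned in at least 1. For the diet difference, against 0 genes, 1 passed with a pseudocount of 10, without the 24 lowest genes, with sample median centring, with a variance trend, with depth as a covariate and without low-count genes (added after seeing the data), 2 with a single panel total, 2 with voom on the recovered counts, 7 with array weights, and 0 to 1 with 1 mouse left out. For the age difference, against 0, there were 8 with a pseudocount of 10, 3 without the 24 lowest genes, 1 with sample medians, 1 with a single total, 3 with the groups fitted alone, 23 with array weights, 3 with a variance trend, 4 with voom, 1 without low-count genes and 0 with 1 mouse left out; the replicate block gave 0 for both differences. The cause of these shifts was not tested. The count model planned as an alternative was not run, since the deposited unit is normalized signal. Depth limits InsR in knockout mice, at 1 to 2 counts, and the 18 genes under 20 counts.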
